A study of Mus musculus with 6 samples.

Results

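The genes described here are 8 genes that mark the formation, fusion and surface equipment of osteoclasts, the cells that resorb bone. They are Nfatc1, Dcstamp, Ocstamp, Oscar, Calcr, Itgb3, Siglec15 and Rab38, chosen by symbol, and all 8 are among the 23170 genes of the authors' deposited table. RNA was sequenced from subchondral bone of the mandibular condyle, the part of the jaw that forms the temporomandibular joint, in wild type mice labelled P6w+PO2w, an age code whose prefixes the labels do not spell out. One group of 3 libraries came from joints given a sham operation and the other group of 3 from joints given a partial discectomy, in which part of the joint disc is cut out. The operation was on 1 side and the operated joint was sampled, and the groups share strain, tissue and age code. Sham samples also carry the tag Rctrl in their descriptions and partial discectomy samples the tag LPD, which the labels do not explain, and whatever these tags stand for cannot be told apart from the operation. A number stands before each tag, 1, 5 and 6 in sham and 2, 4 and 6 in partial discectomy, and whether the shared 6 marks 1 mouse is not stated. The labels do not say that each library is a mouse of its own, so the deposited p-values may measure technical spread in part. The series title concerns Hedgehog signalling in Gli1+ progenitors, and both groups used here are labelled wild type, with no other allele or agent given.

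Osteoclasts form from myeloid precursors that receive macrophage colony-stimulating factor and RANKL. RANKL acts through its receptor RANK, and with co-stimulation through adaptor proteins that carry ITAM motifs it raises calcium, activates the phosphatase calcineurin and turns on NFATc1, the transcription factor that directs the rest of the programme. Precursors then fuse into large multinucleated cells, attach to bone through an integrin and secrete acid and proteases. Resorption of the bone under joint cartilage is a known feature of joint degeneration in rodents.

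Of the 8 genes, stretches before RefSeq start sites are shown here for 2 only, Calcr and Oscar, with 3 start sites between them. The 2 genes were not picked by ratio, though they had the highest ratios among the 8 genes. Both are known targets of NFATc1 in mouse osteoclasts. Target status of the other genes was not looked at, and a link between target status and ratio was not tested. Each stretch has 240 bases, runs 5′ to 3′ on the gene's strand, and ends 10 bases before the start site, per RefSeq on build GRCm38.p6. Capitals mark the NFAT core letters GGAAA on either strand.
Calcr, outer start, minus strand, chr6:3764724-3764963: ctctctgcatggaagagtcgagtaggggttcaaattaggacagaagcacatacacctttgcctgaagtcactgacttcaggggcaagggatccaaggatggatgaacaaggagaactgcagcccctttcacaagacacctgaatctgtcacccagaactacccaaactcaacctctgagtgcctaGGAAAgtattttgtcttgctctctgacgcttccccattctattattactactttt
Calcr, inner start, minus strand, chr6:3763634-3763873: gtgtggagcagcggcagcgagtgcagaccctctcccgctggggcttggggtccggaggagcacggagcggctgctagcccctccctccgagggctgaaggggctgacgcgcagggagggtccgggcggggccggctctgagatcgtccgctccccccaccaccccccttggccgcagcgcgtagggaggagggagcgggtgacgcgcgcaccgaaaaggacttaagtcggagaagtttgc
Oscar, minus strand, chr7:3616168-3616407: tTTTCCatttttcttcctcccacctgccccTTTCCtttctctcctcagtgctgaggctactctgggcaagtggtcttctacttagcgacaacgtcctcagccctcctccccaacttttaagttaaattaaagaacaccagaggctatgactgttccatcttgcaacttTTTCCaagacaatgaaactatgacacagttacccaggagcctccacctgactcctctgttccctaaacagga
The core GGAAA was found 1 time in the outer Calcr stretch, 0 times in the inner one and 3 times in the Oscar stretch. It is a short motif, present in 54.1% of all 32851 stretches of the same length. The PU.1 letters GAGGAA, searched on both strands, were found 1 time in the Oscar stretch, where they do not overlap a core match, against 22.3% of all stretches, and not in either Calcr stretch. The AP-1 letters TGANTCA and the E-box CACGTG were in none of the 3 stretches, against 6.58% and 5.69% of all stretches. The inner Calcr stretch had a GC content of 71.3%, the outer one 46.7% and the Oscar stretch 47.1%, beside a median of 52.1% over all stretches. These matches describe letters in the window and say nothing of binding.

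All 8 genes had a higher mean after partial discectomy than in sham, and none of them passed the threshold of the authors' test. The ratio of the partial discectomy mean to the sham mean ran from 1.20 for Nfatc1 to 2.54 for Calcr as listed in the authors' deposited table. The median log2 ratio of the 8 genes was 0.78, beside 0.08 for all genes tested. A gene was called changed at a deposited p-value, adjusted by Benjamini-Hochberg over all 23170 genes, under 0.05, and the model behind the p-value is not named. By that rule 0 of the 8 genes were called, against 2.38% of all genes (2.28% higher and 0.104% lower), and their adjusted p ran from 0.0959 to 0.718 according to the authors' deposited table. At an unadjusted p under 0.05 there were 5 of 8 higher and 0 lower, against 10.9% and 3.31% of all genes. A ratio above 1 was itself common, at 62.7% of all genes. The genes were chosen with earlier results of these data known, so these counts are descriptions.

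**Figure D1:**
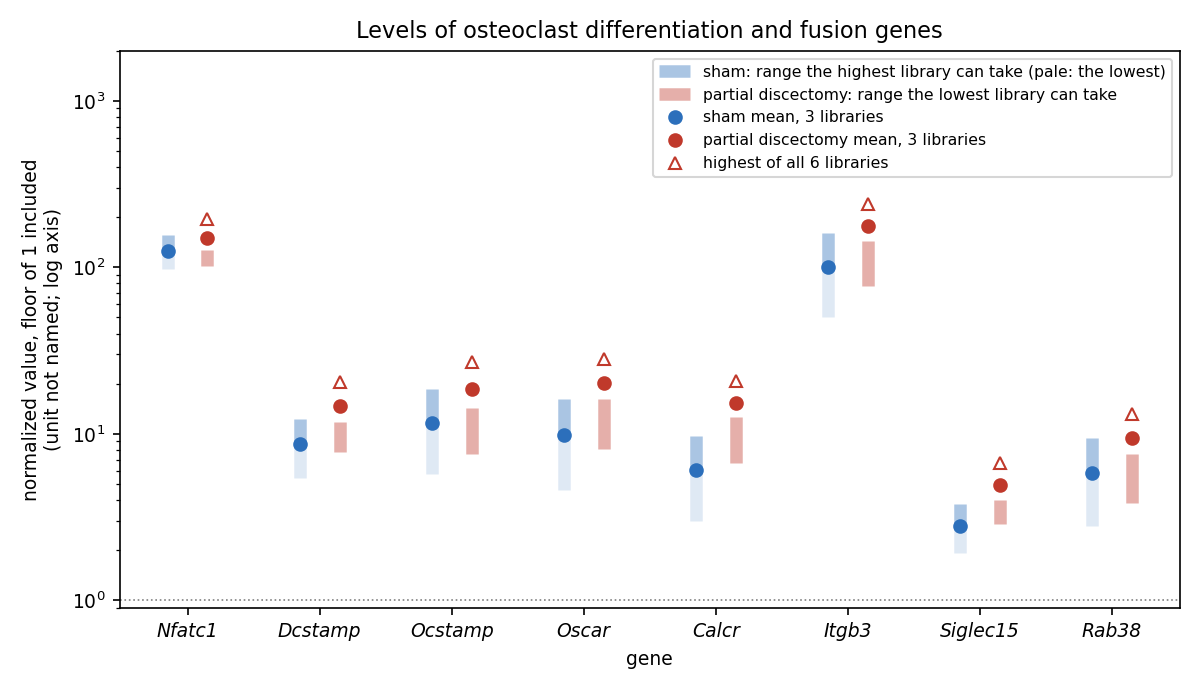
Normalized value (log axis, floor of 1 included, unit not named) of each of the 8 genes. Circles are the group means of 3 libraries, triangles the highest of all 6 libraries, and bars the range that the highest and lowest sham library (darker and paler blue) and the lowest partial discectomy library (red) can take given the deposited means, maximum and geometric mean. Every partial discectomy mean lies above its sham mean, and every triangle belongs to a partial discectomy library, from 6.68 for Siglec15 to 241 for Itgb3.

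The deposited values are means per group, the highest value over the 6 libraries and the geometric mean over them, in a unit that is not named. Values per library were not analysed here. The smallest group mean in the table is 1, which was read as an offset added to every library and is called the floor. Together these 4 values limit what single libraries can have been. For every one of the 8 genes they can hold only if the highest library is a partial discectomy library. This was so for 47.9% of the 15911 genes with a mean of at least 1 above the floor, while a sham library had to be highest for 17.9%. The placing uses the same group means as the ratios, so it is not a result separate from the higher means. The highest library held 43.4% to 48.5% of the sum of the 3 partial discectomy libraries, beside 33.3% for an even split. Whether it was the same library for each gene was not tested.

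Nfatc1 encodes NFATc1, the factor that commits precursors to the osteoclast fate, and its level differed least. Its mean was 150.3 after partial discectomy and 126 in sham by the authors' deposited table, floor included. The highest library stood at 196, the lowest partial discectomy library between 102 and 128, and the highest sham library between 126 and 156. Taken jointly, every set of values that meets these limits has at least 1 sham library above the lowest partial discectomy library, so the groups overlapped. The ratio as listed in the authors' deposited table was 1.20 (95% limits 0.811 to 1.77, adjusted p = 0.718). With the highest library left out, the other partial discectomy libraries averaged 128, a ratio of 1.02. The gene lies on chromosome 18, 80606205 to 80713071 (GRCm38), on the minus strand, and an antisense gene of the annotation overlaps it. Whether the counting used strand is not given in the sources used here, so reads of the antisense gene may be included. Nfatc1 is also expressed by endothelial cells and T cells, whose markers are given below.

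The fusion genes Dcstamp and Ocstamp stood at similar levels to each other and had similar ratios. Dcstamp encodes DC-STAMP, a membrane protein without which mouse osteoclast precursors do not fuse. Its mean was 14.7 after partial discectomy and 8.64 after sham, with a ratio of 1.70 (1.05 to 2.74, adjusted p = 0.299) according to the authors' deposited table. Its highest library was at 20.3, its lowest partial discectomy library between 7.82 and 11.8, and its highest sham library between 8.69 and 12.3. These limits do not settle whether the groups overlapped. Ocstamp encodes OC-STAMP, a related membrane protein that is also needed for fusion in mice. It had means of 18.5 and 11.6, a ratio of 1.59 (0.884 to 2.87, adjusted p = 0.437) as listed in the authors' deposited table. Its highest library was at 26.9, with the lowest partial discectomy library between 7.55 and 14.3 and the highest sham library between 11.6 and 18.7. For Ocstamp, as for Nfatc1, no set of values that meets these limits keeps the groups apart. Dcstamp lies on chromosome 15, 39745930 to 39760938, plus strand, and Ocstamp on chromosome 2, 165393760 to 165400405, minus strand, and no other annotated gene overlaps either.

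Among the surface receptors, Calcr had the highest ratio of the 8 genes and the lowest adjusted p, which still missed the threshold. Calcr encodes the calcitonin receptor, through which calcitonin halts resorption, and it is made late, by mature osteoclasts. Its mean was 15.4 after partial discectomy and 6.03 in sham, and its ratio was 2.54 (1.44 to 4.48, p = 0.00389, adjusted p = 0.0959) according to the authors' deposited table. By that p-value it was gene 940 of 23170, and 1.74% of all genes had a ratio as high or higher. The highest library was at 20.9, the lowest partial discectomy library between 6.65 and 12.6, and the highest sham library between 6.06 and 9.71. Groups that do not overlap are possible within these limits, and so is an overlap. Leaving the highest library out gave a ratio of 2.09. Calcr lies on chromosome 6, 3685680 to 3764714, minus strand, with 5 protein-coding transcripts, and the annotated miRNA genes Mir653 and Mir489 lie within it.

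Oscar encodes OSCAR, a collagen receptor that signals through the adaptor FcRγ and co-stimulates osteoclast formation. Its mean was 20.2 after partial discectomy against 9.83 in sham, with a ratio of 2.05 (1.12 to 3.77, adjusted p = 0.223) as listed in the authors' deposited table. Its highest library was at 28.0, its lowest partial discectomy library between 8.13 and 16.3, and its highest sham library between 9.89 and 16.3. These bounds allow groups that overlap and groups that do not. Without the highest library the ratio was 1.66. Oscar is expressed by other myeloid cells too, and it lies on chromosome 7, 3609813 to 3616157, minus strand.

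Siglec15 had the lowest deposited means of the 8 genes, not adjusted for length, and a ratio near the middle of them. It encodes Siglec-15, a lectin that binds sialic acid and pairs with the adaptor DAP12 in osteoclast formation. Its mean was 4.90 after partial discectomy against 2.81 in sham, with a ratio of 1.74 (1.11 to 2.75, adjusted p = 0.264) according to the authors' deposited table. With the floor removed the means were 3.90 and 1.81 and the ratio was 2.16, so that the floor moved its ratio more, in proportion, than that of the other 7 genes. Its highest library was at 6.68, its lowest partial discectomy library between 2.86 and 4.01, and its highest sham library between 2.82 and 3.80. Here too an overlap of the groups is possible but not required. It lies on chromosome 18, 78043614 to 78057395, minus strand.

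Itgb3, the integrin gene, was among the 2 most abundant of the 8 genes, and its ratio was the third highest. It encodes integrin β3, which pairs with αv to form the receptor that anchors osteoclasts to bone, and with αIIb in platelets and their precursors. Its mean was 177 after partial discectomy against 100.1 in sham, with a ratio of 1.77 (0.996 to 3.13, adjusted p = 0.315) as listed in the authors' deposited table. Its unadjusted p of 0.0387 and its 95% limits, which include 1, fall on different sides of their thresholds according to the authors' deposited table. The highest library was at 241, the lowest partial discectomy library between 77.4 and 145, and the highest sham library between 101 and 160. Both overlapping and separate groups would meet these limits. Itgb3 lies on chromosome 11, 104608000 to 104670476, plus strand.

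Rab38 encodes a small GTPase that steers vesicles to lysosome-related organelles and that is induced when mouse precursors become osteoclasts. Its mean was 9.38 after partial discectomy against 5.79 in sham, with a ratio of 1.62 (0.880 to 2.98, adjusted p = 0.441) as listed in the authors' deposited table. The highest library was at 13.1, the lowest partial discectomy library between 3.86 and 7.52, and the highest sham library between 5.82 and 9.45, which leaves an overlap undecided. Without the highest library the ratio was 1.30. The gene lies on chromosome 7, 88430273 to 88491572, plus strand, and overlaps a processed pseudogene on the other strand.

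**Figure D2:**
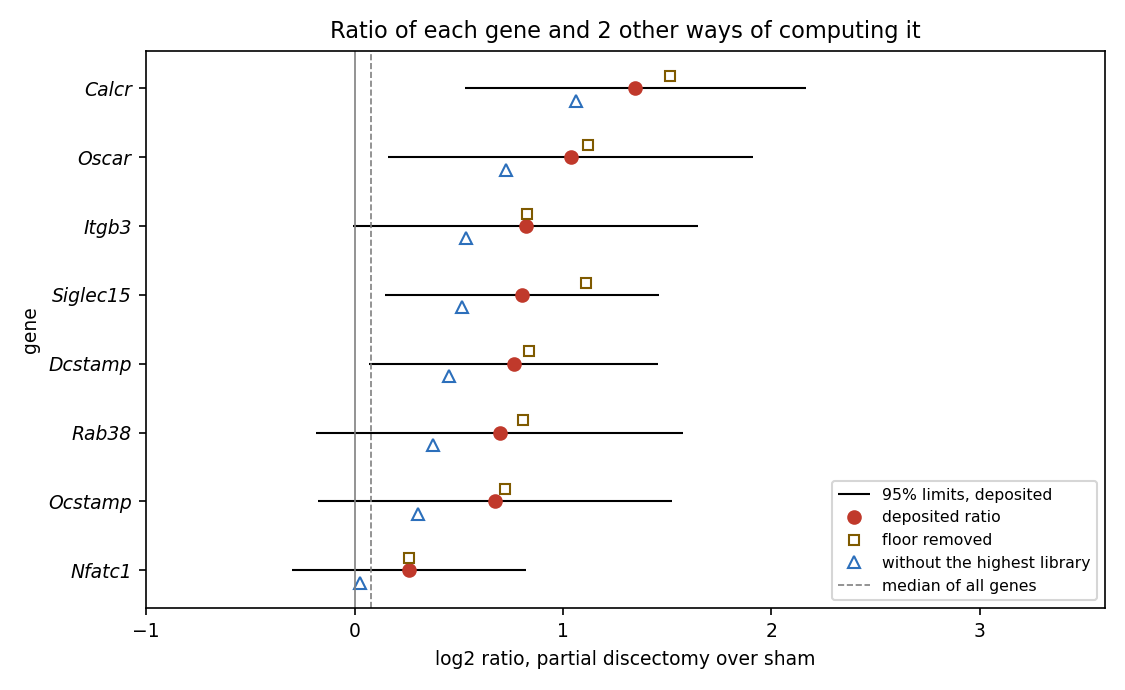
Log2 ratio of partial discectomy over sham for the 8 genes, with the deposited 95% limits as lines, the deposited ratio as circles, the ratio after removing the floor as squares and the ratio without the highest library as triangles. The limits of Calcr, Oscar, Siglec15 and Dcstamp lie above 0, those of the other 4 genes include 0, and every symbol lies above 0.

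The 8 ratios could not be told apart from one another by their limits. The highest lower limit, that of Calcr at 1.44, lay below the lowest upper limit, that of Nfatc1 at 1.77, so 1 ratio would lie within the limits of all 8 genes according to the authors' deposited table. Differences between the genes were not tested, as they share the same libraries. The 95% limits lay above 1 for 4 of the 8 genes, against 11.1% of all genes, and those 4 were Calcr, Oscar, Siglec15 and Dcstamp. Leaving out the highest library on 1 side lowers a ratio by construction. It left all 8 ratios above 1 and took the median log2 ratio from 0.78 to 0.48. The spread within groups, estimated from the gap between the group means and the geometric mean, was an SD of 0.33 on the log2 scale for Nfatc1 and 0.43 to 0.64 for the other 7 genes, where the median gene with a mean of at least 5 above the floor had 0.26.

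Between genes, levels can be set side by side only per length, and it is not known whether the deposited values already account for length. Divided by the annotated exon length in kilobases, the partial discectomy mean above the floor was highest for Itgb3 at 29.8 and Nfatc1 at 20.0. Oscar followed at 10.4, then Rab38 at 5.31, Dcstamp at 5.13, Ocstamp at 4.78, Calcr at 3.67 and Siglec15 at 3.38. In sham the level per kilobase was 16.8 for Itgb3, 16.7 for Nfatc1 and 4.78 for Oscar. Rab38, Ocstamp and Dcstamp stood at 3.04, 2.89 and 2.87 per kilobase in sham, Siglec15 at 1.57 and Calcr at 1.29. Calcr thus had the lowest level per kilobase in sham, and Siglec15 the lowest after partial discectomy. Without values per library, neighbours in these orders such as Itgb3 and Nfatc1 in sham cannot be shown to differ.

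**Figure D3:**
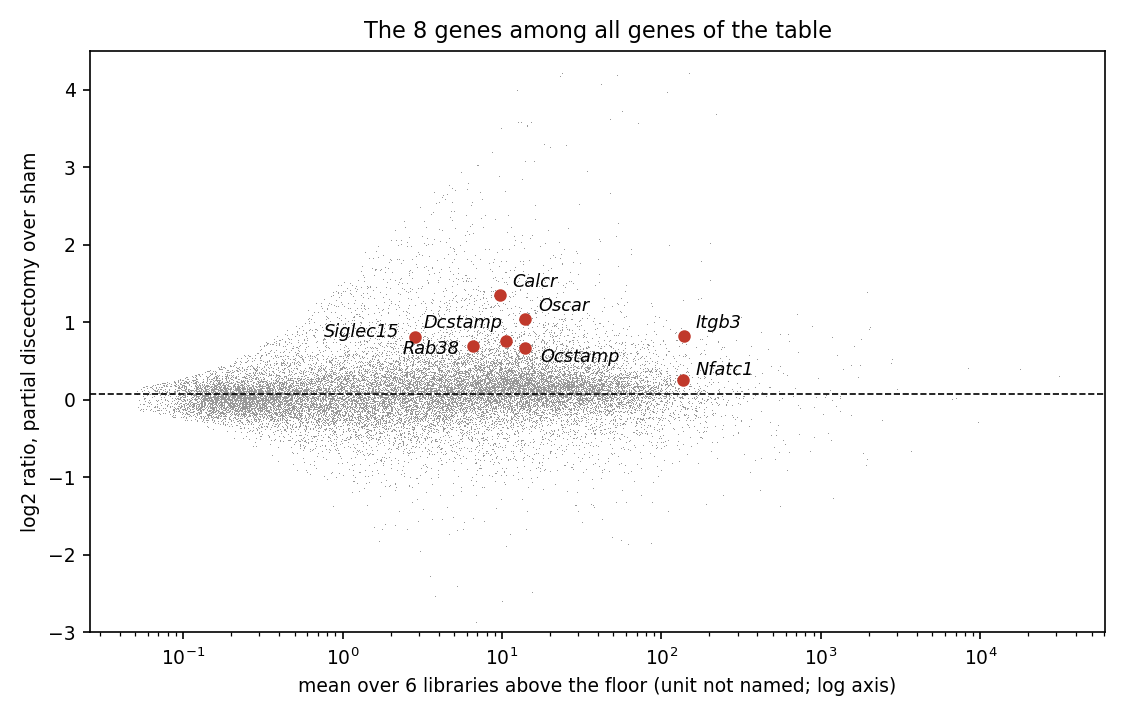
Each dot is a gene of the table, placed by its mean above the floor over 6 libraries (log axis, unit not named) and its log2 ratio of partial discectomy over sham, with the 8 genes in red and the median of all genes, 0.08, dashed. Of the red points, 7 lie in the upper part of the cloud at log2 ratios from 0.67 to 1.35, and Nfatc1 lies at 0.26.

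Against genes of at least moderate level the 8 ratios kept much the same place. Of the 10286 genes with a mean of at least 5 above the floor, a ratio as high or higher than that of Calcr was held by 2.19%, that of Oscar by 3.77% and that of Itgb3 by 5.83%. The corresponding shares were 6.19% for Siglec15, 6.62% for Dcstamp, 7.85% for Rab38 and 8.39% for Ocstamp. Only 7 of the 8 genes reach that level themselves, and Siglec15, which does not, is set beside genes of higher level. For Nfatc1 the share was 32.0%. Among these 10286 genes the median log2 ratio was 0.14, beside 0.08 for all genes. Of them, 70.8% had a ratio above 1, and 11.7% were higher at an unadjusted p under 0.05.

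The genes that carry out resorption had a median log2 ratio of 0.73, close to the 0.78 of the 8 genes. Of 15 such genes 14 had a ratio above 1, 1 was called higher and 0 lower, and 9 were higher at an unadjusted p under 0.05. The called gene was Car2, carbonic anhydrase 2, which red cell precursors also express (7.69-fold, 4.18 to 14.1, adjusted p = 0.00937 as listed in the authors' deposited table). Acp5, Ctsk and Mmp9, which encode an acid phosphatase and proteases of osteoclasts, had ratios of 2.13 (0.974 to 4.66), 1.68 (0.974 to 2.91) and 1.92 (0.898 to 4.11) according to the authors' deposited table. A partial discectomy library had to be highest for 14 of the 15 genes, as for all 8 genes described here.

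Upstream of Nfatc1, genes of the RANK and M-CSF pathway had a median log2 ratio of 0.15, with 0 of 18 called and 3 higher at an unadjusted p under 0.05. The receptors RANK (Tnfrsf11a) and Csf1r had ratios of 1.61 (1.08 to 2.40, adjusted p = 0.248) and 1.80 (1.04 to 3.14, adjusted p = 0.339), and the adaptor Traf6 one of 1.26, as listed in the authors' deposited table. Of 6 signals to precursors 1 was called higher, the cytokine gene Il1b (2.25-fold, adjusted p = 0.0323), while RANKL (Tnfsf11), its decoy receptor Tnfrsf11b and Csf1 had ratios of 0.681, 0.984 and 1.21 according to the authors' deposited table. All 12 genes of ITAM co-stimulation, the arm in which OSCAR and Siglec-15 act, had a ratio above 1, of which 4 were called higher and 11 higher at an unadjusted p under 0.05, and their median log2 ratio was 1.07. Fcer1g, which encodes the FcRγ partner of OSCAR, rose 2.59-fold (1.63 to 4.12, adjusted p = 0.0489) as listed in the authors' deposited table. The ratio of Tyrobp, which encodes the DAP12 partner of Siglec-15, was 2.42 (1.20 to 4.86, adjusted p = 0.246) and that of Trem2 was 1.08, according to the authors' deposited table. The other called genes of that list were the kinase gene Btk (2.33-fold) and the receptor genes Sirpb1a (1.89-fold) and Sirpb1b (2.98-fold) as listed in the authors' deposited table, the last 2 being close copies whose reads may be split. Neutrophils, monocytes and B cells also express genes of this list, though not all the same ones.

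Genes of calcium and calcineurin, which activate NFATc1, had 0 of 11 calls, 1 higher at an unadjusted p under 0.05 and a median log2 ratio of 0.17. The calcineurin subunit genes Ppp3ca, Ppp3cb and Ppp3cc had ratios of 1.22, 1.10 and 1.15 according to the authors' deposited table. Of 4 other NFAT genes none was called and 1 was lower at an unadjusted p under 0.05, Nfatc2 (0.556, 0.375 to 0.825, adjusted p = 0.153), beside Nfatc3 at 1.10 and Nfatc4 at 0.662 as listed in the authors' deposited table. Of 8 repressors of osteoclast formation 1 was called higher, the inhibitory receptor gene Lilrb4a (2.47-fold), with 4 higher at an unadjusted p under 0.05 and a median log2 ratio of 0.40. The transcription factor genes Irf8 and Bcl6, which restrain NFATc1 or its targets in mouse precursors, had ratios of 2.48 (1.38 to 4.47, adjusted p = 0.0872) and 1.10 according to the authors' deposited table.

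Partners of the surface, fusion and vesicle genes gave the following counts. Of 14 integrin and podosome genes 3 were called higher, with a median log2 ratio of 0.47 and 7 higher at an unadjusted p under 0.05. They were Itga2b (3.16-fold, 2.17 to 4.61), which encodes the platelet partner of integrin β3, and the blood cell adhesion and actin genes Fermt3 (2.85-fold) and Was (2.86-fold), as listed in the authors' deposited table. Itgav, the partner gene of Itgb3 in osteoclasts, had a ratio of 1.24 (0.807 to 1.91), Itgb1 one of 1.01 and Itgb5 one of 0.774 according to the authors' deposited table. Above the floor Itga2b went from 1.12 in sham to 5.71 after partial discectomy, and Itgb3 from 99.1 to 176. These levels were not divided by length, so they do not rank the genes against each other. Of 14 other fusion genes none was called and 3 were higher at an unadjusted p under 0.05, with a median log2 ratio of 0.19, and Cd9, Cd81 and Cd44 had ratios of 0.913, 0.867 and 1.07 as listed in the authors' deposited table. Of 11 relatives and trafficking partners of Rab38 1 was called higher, Rab27a (3.48-fold), which also serves granule release in blood cells, with 3 higher and 1 lower at an unadjusted p under 0.05. For the close relative Rab32 the ratio was 1.84 (1.19 to 2.85, adjusted p = 0.207) and for Rab27b it was 0.710 according to the authors' deposited table. Of 5 relatives and partners of the calcitonin receptor none was called and 1 was higher at an unadjusted p under 0.05, with Calcrl, Ramp1 and Ramp2 at ratios of 0.868, 1.60 and 0.684 as listed in the authors' deposited table. Of 9 factors by which osteoclasts act on other bone cells 1 was called higher, the complement gene C3 (4.58-fold), and 1 lower, Wnt10b (0.522), while Sphk1, Sema4d and Cthrc1 had ratios of 1.40, 1.80 and 0.733 according to the authors' deposited table.

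**Figure D4:**
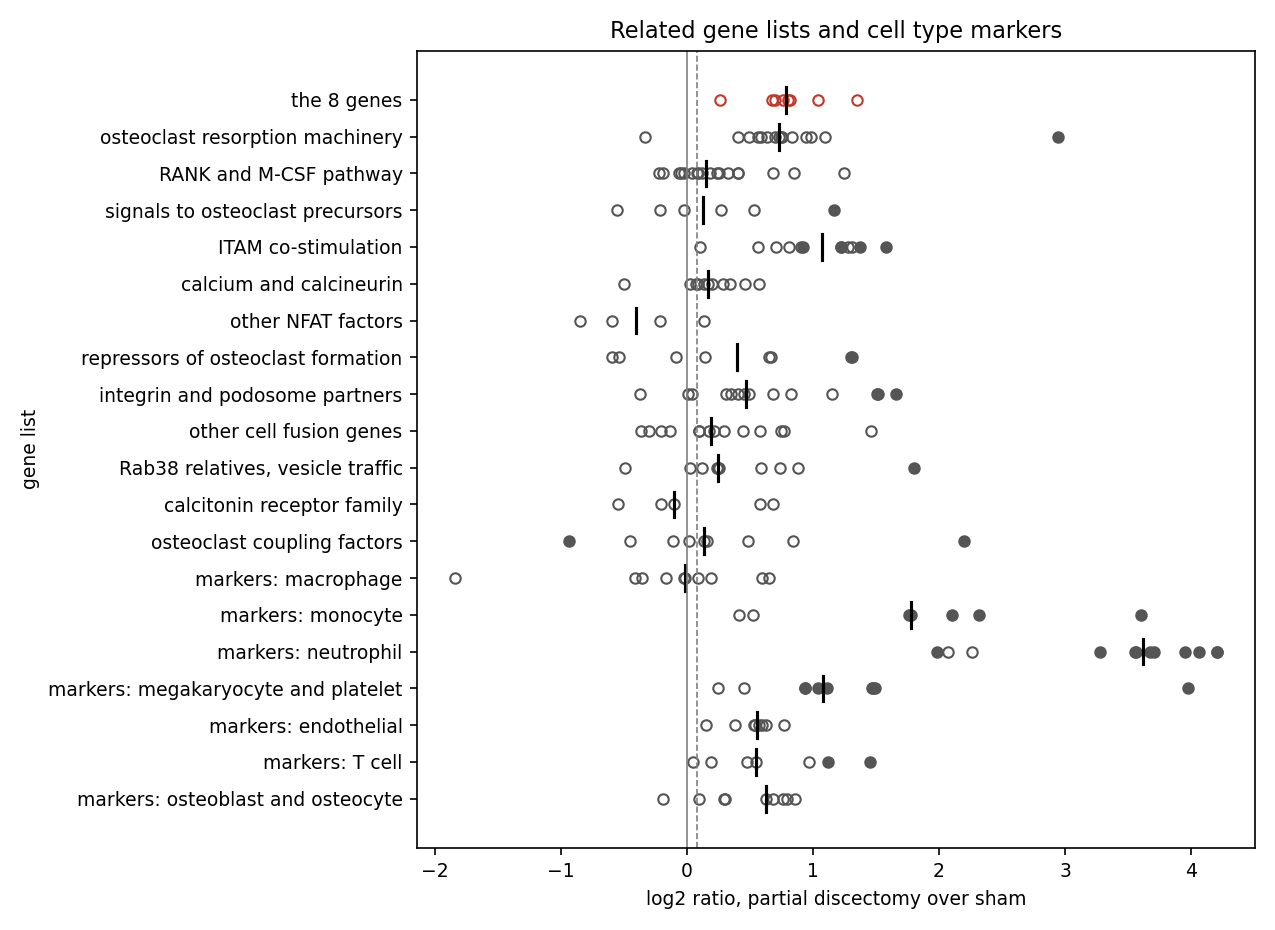
Log2 ratio of partial discectomy over sham for the genes of each list, 1 symbol a gene, filled where the deposited adjusted p is under 0.05, with the list's median as a bar and the median of all genes, 0.08, dashed. The 8 genes (red) have no filled symbol and a median of 0.78, beside 0.73 for resorption genes, 0.15 for the RANK and M-CSF pathway and 3.62 for neutrophil markers.

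Markers of other cells moved in the same comparison, and in bulk RNA a change in the number of cells of a type and a change in RNA per cell cannot be told apart. The summed level of the 8 genes above the floor was 402 after partial discectomy and 262 in sham, or 226 and 163 without Itgb3. Most of that remainder came from Nfatc1, at 149 and 125. For 12 neutrophil markers, 10 of them called higher, the summed level was 1446 and 108. For 10 megakaryocyte and platelet markers, 8 called higher, it was 40.9 and 4.00, or 16.6 and 3.39 without Ppbp, the median log2 ratio of the list was 1.08, and Gp6, Treml1 and Tubb1 lay within 0.1 of the floor in sham. Monocyte markers had 5 of 7 called higher with sums of 519 and 151, and erythroid markers 8 of 8 with sums of 227 and 11.9. Macrophage markers had 0 of 10 called, 1 higher and 1 lower at an unadjusted p under 0.05, and sums of 203 and 187, which were 134 and 142 without Cd68. T cell markers had 2 of 7 called higher and 5 higher at an unadjusted p under 0.05, with sums of 11.8 and 5.62. Without Cd4 the T cell sums were 7.18 and 1.21. Endothelial markers had 0 of 8 called, with 1 higher at an unadjusted p under 0.05 and sums of 250.0 and 178. Dendritic cell markers had 1 of 7 called higher, Flt3, with sums of 21.5 and 16.4. Melanocyte markers, looked at for Rab38, had none of 3 called, with Dct and Pmel under 0.5 above the floor in both groups. The other one, Mitf, is also in the list of the RANK and M-CSF pathway, and Tyr, Tyrp1 and Mlana were not among the genes tested here. Muscle satellite cell markers, looked at for Calcr, had none of 2 called, and Pax7, Myf5 and Myod1 were not among the genes tested here. Osteoblast and osteocyte markers, which the labelled tissue should hold, had 0 of 9 called, a median log2 ratio of 0.63 and sums of 38127 and 30418, most of it from Col1a1 (34179 and 27782). The other 8 summed to 3947 and 2636. The part of these cells in the values of the 8 genes was not tested.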

How the data were processed

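RNA of 3 sham and 3 partial discectomy libraries was compared, with groups taken from the sample titles. STAR 2.6.1d and mm10 were used, per the submitters' processing notes. How reads were counted and normalized and which model was fitted is not given in the sources used here. A second file held gene positions only and was not used. The authors' deposited table holds a normalized signal per gene and group, a ratio with its log2 value, a signed fold change with 95% limits (entered as a score, turned here into ratios) and p-values. Total counts per library and depth are unknown, so no interval that needs them is given. The columns headed counts hold values that are not whole, so no count test was run.

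The adjusted p equalled the Benjamini-Hochberg adjustment over all 23170 genes. For every gene the mean of both group means matched the deposited mean, and the geometric mean did not exceed that of the group means. Values that single libraries could take were searched on a grid, allowing none under the floor of 1. The search and the SD estimate were tested on simulated data. The deposited stop coordinate lies 1 base past the annotated end, so ends are from GENCODE M21. Python 3.11.15 and pandas 2.3.3 were used.

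The members and the 12 other gene lists and 11 marker lists were chosen with earlier results of these data known. Named genes are the 8 members, the first 3 genes of each of the other lists and up to 4 called genes of each, except for an item that is not reported here. Marker lists are given by counts and sums instead, and the few markers named were picked after their values were seen.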

Additional observations from a re-analysis of the deposited data

How the results depend on the processing

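The count of called genes stayed at 0 of 8 when the deposited p-values were readjusted over the 15911 genes with a mean of at least 1 above the floor, over the 10286 with at least 5, and without the neutrophil, erythroid and platelet markers, a step added after the data were seen. The lowest adjusted p, that of Calcr, was then 0.0826, 0.0949 and 0.0985. With other call rules the count was 4 by 95% limits that exclude 1 and 5 by an unadjusted p under 0.05. It was 3 by limits that exclude the median ratio of all genes and 3 by limits that exclude the ratio of the summed group means. For the rules on the median ratio and on the summed group means the share of all genes was not computed. Whether those counts stand out is therefore not known. The median log2 ratio of the 8 genes ran from 0.42, with a pseudocount of 10, to 0.83, with the floor removed. All 48 recomputed ratios of single genes stayed above 1, and 2 moved by more than the spread within groups, both with a pseudocount of 10, to log2 ratios of 0.70 for Calcr and 0.24 for Siglec15. The highest library could be placed from the maximum alone for 3 genes, and for the other 5 with the geometric mean, an addition made after the data were seen. No paired analysis was possible because values per library were not analysed here, and for the same reason single replicates could not be left out in turn. The unknown depth limits what can be said of low genes such as Siglec15.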
